A study of Mus musculus with 24 samples.

Results

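The 40 genes described here carry the cell division cycle and DNA replication. They were listed by name for their textbook role, though earlier results of these data were known when the list was made. They comprise origin licensing and helicase genes (8), DNA synthesis and precursor genes (4), transcription factors (3), G1 cyclins (4), S and M phase cyclins with their kinase (4), mitotic kinases and checkpoint genes (7), spindle motors and kinetochore genes (5), the proliferation markers Mki67 and Top2a, and inhibitors of cyclin-dependent kinases (3). All 40 were among the 54432 genes in the tables, and all 40 were among the 29743 that passed the filter on low counts. They were measured by RNA-seq in mpkCCD cells, a line of mouse cortical collecting duct cells that responds to vasopressin. The groups were cells given dDAVP (desmopressin, an analogue of vasopressin that acts on the V2 receptor) for 3, 6, 12 or 24 h and cells given vehicle for 3, 6, 12 or 24 h, with 3 libraries in each of the 8 groups and 24 in all. Every group had the same history: a wild-type line from strain C57BL/6 at passage 10 to 11, grown for 6 days on permeable filters and held for 24 h in minimal medium before the agent was put on the basolateral side. The labels write the dDAVP concentration as 0.1 M, a unit that may be a typing error, so the dose is uncertain. All groups come from 1 cell line, which as background was derived from a mouse carrying the SV40 large T antigen, a viral protein that binds the Rb family and p53, and the labels do not say whether the 3 libraries of a group came from separate cultures. The p-values below therefore reflect how far these libraries scatter, and that scatter may be technical.

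As background, a cell commits to division in G1, when cyclin D and then cyclin E complexes phosphorylate the Rb family and release E2F factors. E2F then drives the genes for origin licensing and nucleotide supply, the MCM helicase is loaded and fired in S phase, and a later wave of cyclin B, Cdk1, Aurora and Polo kinases and spindle genes carries the cell through mitosis. CDK inhibitors hold this sequence back. In the kidney most collecting duct principal cells rest outside the cycle, whereas a cell line grown on filters can keep cycling, and RNA levels of these genes are often read as a measure of the share of cycling cells. In bulk RNA, fewer cells in a phase and less RNA per cell cannot be told apart.

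The libraries held estimated counts of 17.25 to 27.64 M. The collecting duct principal cell markers had 7 of 10 genes at a median of 1 TPM or more (transcript abundance scaled to the same total in each library), with summed levels of 78.8 to 196 TPM per library, led by Gata3 and Aqp2. The summed markers of other cells stayed low, at 3.57 to 9.43 TPM for intercalated, 1.83 to 7.06 for proximal tubule, 0.391 to 5.13 for thick limb and distal tubule, 0.745 to 8.76 for fibroblast, 0.731 to 7.25 for endothelial and 9.56 to 22 TPM for immune cells, the last mostly Csf1r and Cd68. One property of the libraries moved with the groups and touches every comparison below. The share of counts on 1962 odorant and vomeronasal receptor genes, which are known from sensory epithelium, ranged from 0.14 to 0.933%. It averaged 0.387 ± 0.126, 0.203 ± 0.0754, 0.346 ± 0.0538 and 0.208 ± 0.0455% in dDAVP cells at 3, 6, 12 and 24 h, and 0.652 ± 0.266, 0.544 ± 0.0756, 0.493 ± 0.295 and 0.233 ± 0.0677% in vehicle cells (SD, n = 3 each). The scaling factors of the main test (edgeR with trimmed mean of M-values, TMM) moved with it, between 0.814 and 1.33. The main results are therefore set beside fits with a 5 CPM filter (counts scaled by library size), with the receptor share as a covariate, and on TPM. What the share reflects was not tested, and since it differs between groups its covariate also takes up part of any group difference.

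The cells expressed the whole set at levels that put most members among the abundant genes. Cdk1, the kinase that drives entry into mitosis, was the highest member, with 220.3 TPM in the lowest library, a median of 254.6 and 278.5 in the highest. It alone stood clear of its neighbour in the order of levels: of 39 neighbouring pairs, 38 overlapped in their ranges over the 24 libraries. Next came Pcna, the sliding clamp of the replication fork (135 to 173 TPM), Mcm6, a subunit of the replicative helicase (107 to 139 TPM), Cdkn1a, the p53-induced inhibitor p21 (105 to 134 TPM), Mcm7 (96.6 to 135 TPM) and Birc5, the survivin subunit of the chromosomal passenger complex (95.2 to 116 TPM). Tyms, which makes thymidylate, Mcm5, Mcm4, Ccna2, Mcm3, Rrm2, Mcm2, Cdc20, Rrm1, Top2a and Ccnb1 followed with medians of 58.6 to 104 TPM. Ccnb2, Aurka, Myc, Aurkb and Cdt1 had medians of 34.7 to 48.9 TPM, and Kif20a, Tpx2, Plk1, Cdc6, Bub1b, Mybl2, Kif11, Cenpf, E2f1, Bub1 and Cenpe had medians of 10.6 to 24.9 TPM. At the low end stood Mki67 (7.08 to 11.6 TPM), Ccne2 (6.39 to 12.4), Ccne1 (7.16 to 10.8), Ccnd1 (6.26 to 15.7), Cdkn1b, the inhibitor p27 (5.33 to 8.42), Cdkn2a, which encodes p16 and Arf (3.13 to 5.87), and Ccnd2 (0.0647 to 4.17).

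**Figure D1:**
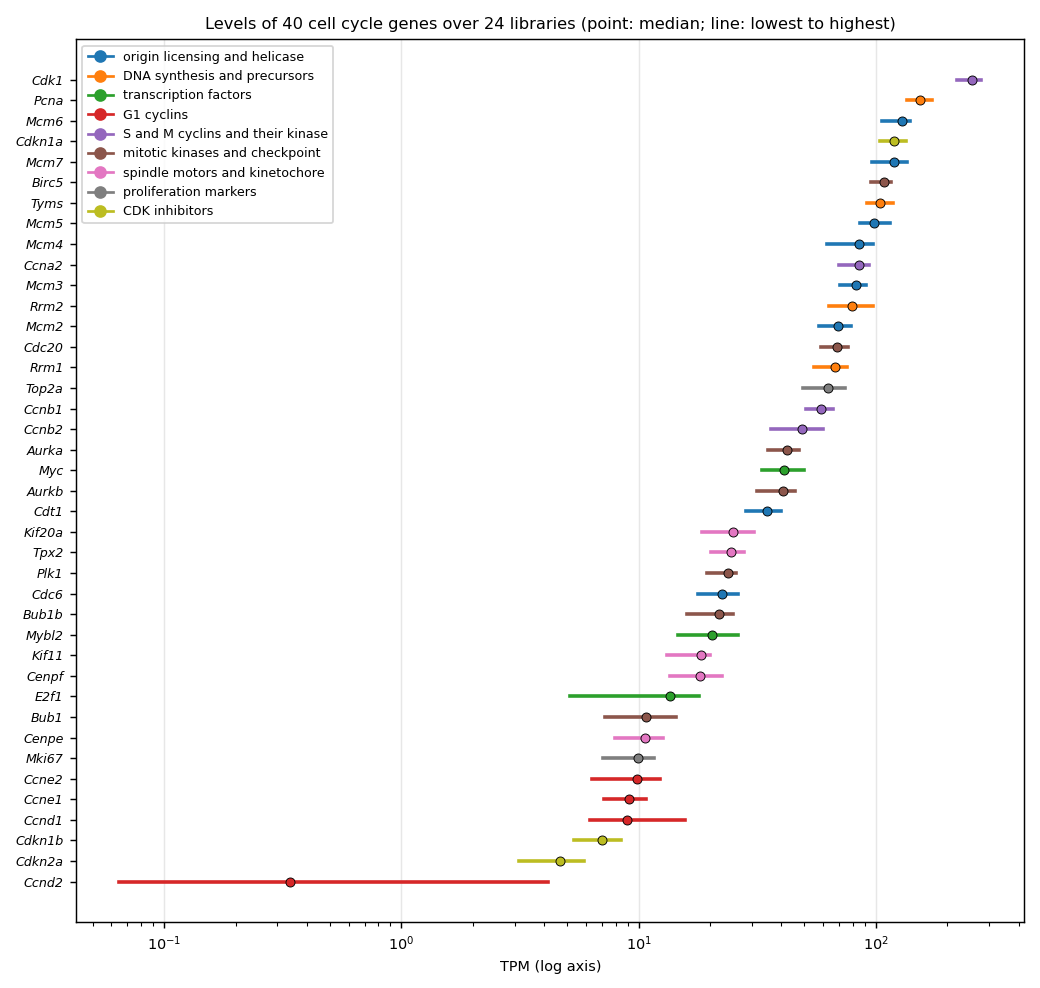
Level in TPM on a log axis of each of the 40 genes over the 24 libraries, ordered by median; the point is the median, the line runs from the lowest to the highest library, and colours give the role. Cdk1 leads, replication and mitotic genes fill the upper part, and the G1 cyclins and 2 of 3 CDK inhibitors lie at the bottom, with Ccnd2 far below the others.

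The set was steady from library to library. The coefficient of variation of TPM over the 24 libraries had a median of 9.52% for the 40 members, beside 13.6% for the 12269 genes past the 5 CPM filter. That comparison was not matched for level, so whether members were steadier than genes of like level was not tested. In all, 36 of 40 members were under 15%. Birc5 varied least (4.47%), whereas E2f1, the G1 factor that drives S phase genes (30.1%), Ccnd1 (29.7%), Cdkn2a (16.6%) and Ccnd2 (131%) were the 4 members above that. The members summed to between 1876 and 2380 TPM, or 0.188 to 0.238% of all transcripts. Ccnd2, which encodes cyclin D2, had only 14 to 88 estimated counts per library, and its exons overlap those of 2 antisense genes that an unstranded library cannot separate, so its values are uncertain.

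**Figure D2:**
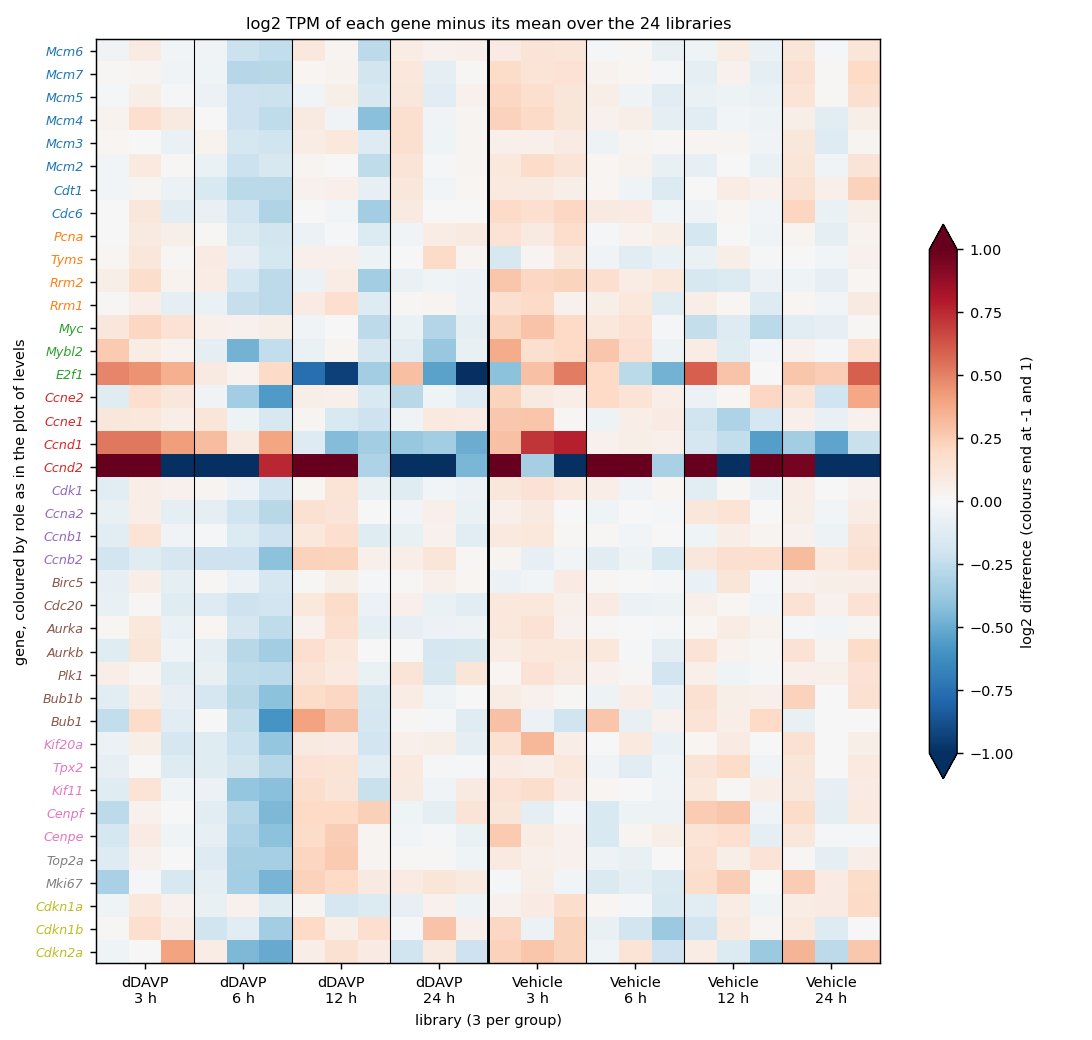
Each row is a gene, grouped and coloured by role, and each column a library; the colour is the log2 TPM minus the gene's own mean over the 24 libraries, cut at -1 and 1. Most cells are pale, and Ccnd1 turns from red at 3 h to blue at 12 and 24 h in both arms, while E2f1 is blue in the dDAVP libraries of 12 h and Ccnd2 switches sign within groups.

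The first question of the design is whether dDAVP changed these genes at a given time. At 3 h no member passed the test (adjusted p under 0.05), beside 0.484% of all genes tested. Of the 40, 4 members had an unadjusted p under 0.05. RLE scaling, DESeq2, limma on TPM, the 5 CPM filter and the covariate also called 0, with 0 and 1 members at an unadjusted p under 0.05 in the last pair of fits. Mki67, the standard marker of cycling cells, had 7.80, 9.64 and 8.72 TPM in dDAVP cells, against 9.69, 10.15 and 9.57 TPM in vehicle cells at 3 h, with 1 dDAVP library inside the vehicle range. The smallest p-values at 3 h belonged to Cdkn1b, Mybl2 and Tyms, with log2 fold changes of 0.30, 0.26 and 0.24. Mybl2 encodes B-Myb, which helps switch on G2 and mitotic genes. On TPM 13 members were lower in all 3 dDAVP libraries than in any vehicle library at 3 h, beside 20.7% of all genes, with Mcm2, Mcm3, Mcm5, Mcm7, Cdc6 and Cdt1 among them.

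At 6 h the call depended on how the libraries were scaled, down to its direction. With TMM, 24 of 40 members passed higher in dDAVP cells, beside 20.9% of all genes higher, and 0 passed lower, beside 17.2% of all genes lower. Of the 40, 37 had an unadjusted p under 0.05. DESeq2 called 20 of 40 higher, beside 5114 of 29743 genes higher, and 0 lower, beside 4721 genes lower. Among the 12269 genes past the 5 CPM filter, the fit with TMM called 49.7% higher. Their median log2 fold change was 0.33, close to 0.36 for the members, while the median over all genes was -0.39. The 10 members with the smallest p were Ccne1, Myc, Cdkn1a, Cdkn1b, Plk1, Birc5, Mcm3, Aurka, Mcm5 and Tpx2, with log2 fold changes of 0.38 to 0.53 and adjusted p of 0.0169 to 0.0269. The other 14, Cdc20, Cdk1, Mcm2, Cdt1, Ccnb1, E2f1, Ccnb2, Mcm6, Ccnd1, Mcm4, Pcna, Tyms, Mcm7 and Mki67, reached adjusted p of up to 0.0446. By role, they were 7 of 8 licensing genes, 2 of 4 DNA synthesis genes, 2 of 3 transcription factors, 2 of 4 G1 cyclins, 3 of 4 S and M phase cyclin and kinase genes, 4 of 7 mitotic kinase and checkpoint genes, 1 of 5 spindle and kinetochore genes, 1 of 2 proliferation markers and 2 of 3 CDK inhibitors.

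In TPM 37 of 40 members had a limma difference below 0 at 6 h. Ccnd1, E2f1 and Tyms were the 3 above 0. Myc, a growth-driving transcription factor, had 42.2, 42.1 and 42.4 TPM in dDAVP cells, against 44.0, 45.15 and 40.6 TPM in vehicle cells at 6 h, so the dDAVP libraries fell inside the vehicle range. Cdkn1a had 111.5, 121 and 108 TPM in dDAVP cells, against 119, 117 and 106 TPM in vehicle cells, again with overlap. Mcm7, whose exons overlap Ap4m1 and Cops6 on the other strand, had 115, 96.6 and 97.1 TPM in dDAVP cells, against 121, 119.7 and 116 TPM in vehicle cells. For Mcm7 all 3 dDAVP libraries were the lower ones. With the 5 CPM filter 1 member, Myc, passed at 6 h (log2 0.21 ± 0.06 (SE), adjusted p = 0.0367, n = 3 each), beside 4.99% of the filtered genes higher. With the receptor share as covariate 0 passed, beside 0.336% of all genes, 14 of 40 members were above 0 and their median log2 fold change was -0.02. None had an unadjusted p under 0.05 in that fit, and limma and DESeq2 were not run with this covariate. By limma on log2(TPM + 1), 11 passed lower, beside 21.7% of all genes lower: Mybl2, Top2a, Ccne2, Bub1b, Mcm7, Aurkb, Cdt1, Ccna2, Rrm2, Kif11 and Kif20a, with differences of -0.40 to -0.16 on that scale. Groups that did not overlap in TPM with dDAVP lower were found for 13 of 40 members, beside 59.4% of all genes. Ccnd1 was the single member with all 3 dDAVP libraries higher, beside 0.884% of all genes. Leaving out any 1 of the 6 libraries also took the TMM count down, to 6 without dDAVP replicate 3, to 2 without vehicle replicate 3, and to 0 without any of the other 4.

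**Figure D3:**
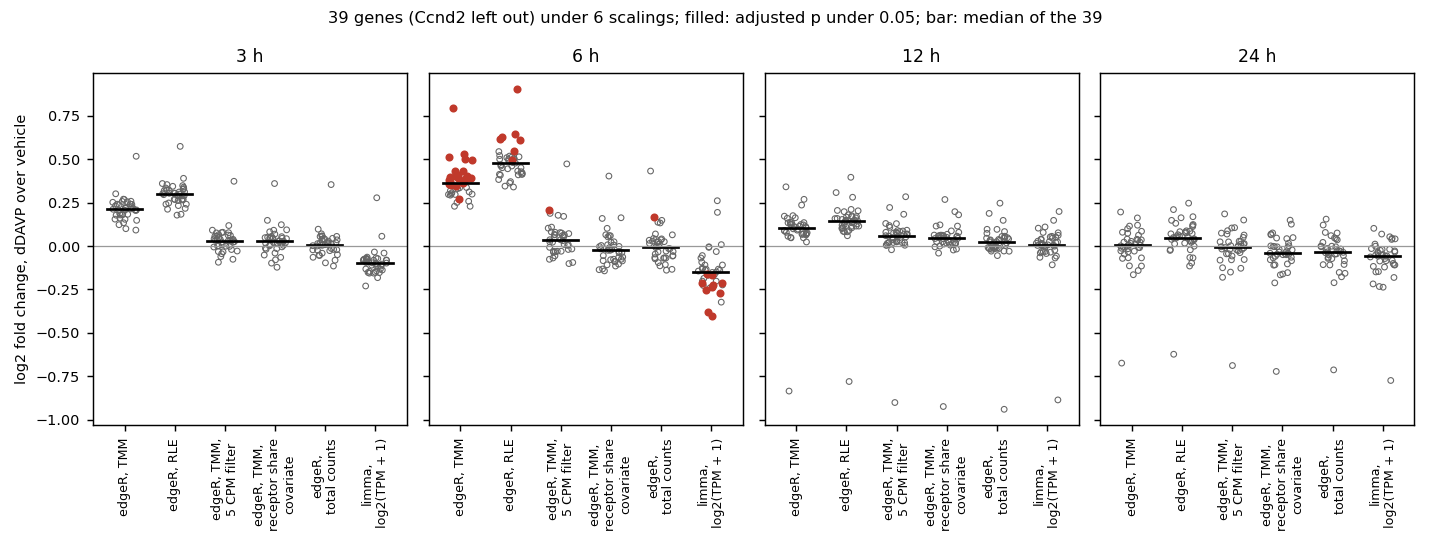
Log2 fold changes of dDAVP over vehicle at each time for 39 members under 6 ways of scaling; filled points passed at adjusted p under 0.05 and bars are medians over the 39 (Ccnd2, the low and variable member, is left out). At 6 h the points sit above 0 with TMM and RLE, around 0 with the 5 CPM filter, the covariate or total counts, and mostly below 0 on TPM, and the point near -0.8 to -0.9 at 12 h is E2f1.

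At 12 h and 24 h no member passed with TMM, beside 0.0773% of all genes for the 12 h test and 0.0841% for the 24 h test. At each time 1 member had an unadjusted p under 0.05, and DESeq2 and limma called 0 as well. The 5 CPM filter and the covariate also called 0, with 4 and 3 members at an unadjusted p under 0.05 at 12 h, and 4 and 4 at 24 h. E2f1 had the smallest p at both. Its level at 12 h was 7.04, 6.22 and 9.32 TPM in dDAVP cells, against 17.9, 14.5 and 11.9 TPM in vehicle cells, with no overlap. It was the single member whose dDAVP libraries all lay below vehicle in TPM at 12 h, beside 3.89% of all genes. At 24 h E2f1 had 14.6, 8.20 and 5.13 TPM in dDAVP cells, against 14.4, 14.05 and 17.98 TPM in vehicle cells, and 1 dDAVP library reached the vehicle range. Its log2 fold change was -0.83 ± 0.28 (SE) at 12 h (edgeR adjusted p = 0.917) and -0.92 ± 0.26 with the covariate (adjusted p = 0.137, n = 3 each), so it did not pass in either fit. At the earlier times its mean ran the other way, at 16.02 ± 0.725 TPM in dDAVP cells and 13.45 ± 4.09 TPM in vehicle cells at 3 h, then 12.8 ± 0.7125 TPM in dDAVP cells and 10.7 ± 2.63 TPM in vehicle cells at 6 h (SD, n = 3 each).

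A test of whether the dDAVP effect itself depended on time called 0 members, beside 0.343% of all genes, with 3 at an unadjusted p under 0.05 and 0 by DESeq2, limma, the 5 CPM filter (4 unadjusted) or the covariate (2 unadjusted). E2f1 came closest (edgeR adjusted p = 0.0736; 0.0101 to 0.452 over the alternative settings). Leaving out vehicle 3 h replicate 1, vehicle 3 h replicate 3 or dDAVP 24 h replicate 1 brought it past the threshold, as did dropping the filter on low counts or both libraries with the highest receptor share. At 24 h, 5 members were lower in all 3 dDAVP libraries in TPM, beside 7.53% of all genes: Mybl2, Cdk1, Aurka, Aurkb and Cdkn1a. The p21 gene Cdkn1a had 111, 121 and 113 TPM in dDAVP cells, against 123.6, 124.5 and 134 TPM in vehicle cells at 24 h. Its edgeR log2 fold change of -0.12 ± 0.14 (SE) was smaller than its error.

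Averaged over the 4 times, 17 members passed higher with TMM, beside 16.7% of all genes higher and 39.8% of the genes past the 5 CPM filter. The receptor share fit called 0, beside 1.22% of all genes, with 3 at an unadjusted p under 0.05. The 10 of smallest p with TMM were Cdkn1b (log2 0.32), Ccne1 (0.26), Myc (0.24), Plk1 (0.19), Tyms (0.16), Bub1 (0.21), Mcm3 (0.19), Ccnb1 (0.20), Pcna (0.21) and Aurka (0.19). Ccne1, which encodes cyclin E1, Cdkn1b and Myc were the 3 that also passed with the 5 CPM filter, with log2 effects of 0.12 ± 0.03, 0.18 ± 0.04 and 0.10 ± 0.03 (SE), beside 11.4% of the filtered genes higher. Cdkn1b had 7.91, 7.235 and 7.75 TPM in dDAVP cells, against 6.06, 7.33 and 7.02 TPM in vehicle cells at 12 h, and 1 vehicle library lay inside the dDAVP range. Its mean TPM in dDAVP cells was below that in vehicle cells at 3 h (7.332 against 7.553) and 6 h (5.945 against 5.987). At 24 h it was above (7.466 against 6.874). By limma on log2(TPM + 1) the mean effect of Cdkn1b was 0.0523 (adjusted p = 0.359). Limma on TPM instead called 12 members lower and 0 higher on average, beside 36.8% of all genes lower. A direction of the mean effect over the set was therefore not fixed by these data.

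The second question is how the genes moved over the hours of the experiment within each arm. The clearest change was in Ccnd1, whose product cyclin D1 is the growth factor sensor of G1. Ccnd1 (ENSMUSG00000070348, chromosome 7, 144929931 to 144939925, minus strand, GRCm38) had 13.2, 13.2 and 12.3 TPM in the 3 h libraries, 11.3, 9.77 and 12.04 at 6 h, then 8.35, 6.79 and 7.21 by 12 h, and finally 7.05, 7.18 and 6.48 TPM after 24 h in dDAVP cells. In vehicle cells it had 11.2, 15.03 and 15.7 TPM in the 3 h libraries, 9.46, 9.53 and 9.50 at 6 h, then 8.15, 7.72 and 6.26 by 12 h, and finally 7.18, 6.34 and 7.84 TPM after 24 h. In both arms every library of 12 h and of 24 h lay below every library of 3 h. The 24 h over 3 h change was -0.58 ± 0.15 (log2, SE) in dDAVP cells and -0.42 ± 0.15 in vehicle cells by edgeR with TMM (adjusted p = 0.0484 in dDAVP cells and 0.0325 in vehicle cells, n = 3 each). With the receptor share covariate it was -0.83 ± 0.10 in dDAVP cells (adjusted p = 9.35e-06) and -0.81 ± 0.11 in vehicle cells (adjusted p = 0.00019).

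Ccnd1 was the single member that passed lower at 24 h over 3 h in dDAVP cells with TMM, beside 0.293% of all genes lower. With the covariate Ccnd1 and Myc passed lower, beside 2.64% of all genes lower. The Ccnd1 change kept its sign under all 11 alternative settings in both arms, but missed the threshold in both arms with RLE scaling, without the filter and with DESeq2, and in either arm when any 1 of that arm's 6 libraries of 3 and 24 h was left out. Its exons overlap LTO1 on the opposite strand. The dDAVP and vehicle courses of Ccnd1 gave no call for a difference (edgeR adjusted p of the dependence on time = 0.685), with differences between arms of 0.13 ± 0.15 at 3 h, 0.40 ± 0.15 at 6 h, 0.14 ± 0.15 at 12 h and -0.03 ± 0.15 (log2, SE) at 24 h. The 6 h difference is among the calls above (edgeR adjusted p = 0.0364; DESeq2 adjusted p = 0.0486). It was -0.02 ± 0.11 with the covariate (adjusted p = 0.998) and 0.08 ± 0.09 with the 5 CPM filter (adjusted p = 0.592).

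Myc moved the same way but less. It had 44.1, 47.2 and 45.2 TPM at 3 h and 39, 33.25 and 38.4 TPM at 24 h in dDAVP cells, and 47.5, 49.6 and 46.8 TPM at 3 h and 37.8, 38.5 and 41.2 TPM at 24 h in vehicle cells. All libraries of 24 h were below those of 3 h in both arms. The log2 change was -0.31 ± 0.08 (SE) in dDAVP cells with the covariate (adjusted p = 0.0216) and -0.10 ± 0.13 with TMM (adjusted p = 0.626). In vehicle cells Myc stood at -0.17 ± 0.09 with the covariate and at 0.18 ± 0.13 with TMM, so its sign in vehicle cells turned with the fit. Rrm2, the small subunit of ribonucleotide reductase, was also lower in TPM in every library of 24 h than of 3 h in both arms, as was Mybl2. In vehicle cells their sign turned with the fit too. There DESeq2 gave log2 changes of 0.336 for Rrm2 (adjusted p = 0.146) and 0.486 for Mybl2 (adjusted p = 0.024). In all, 5 members were lower in TPM in every library of 24 h than of 3 h in dDAVP cells, beside 29.5% of all genes, and 8 in vehicle cells, beside 46.9% of all genes.

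On TPM mitotic genes did not all move one way. In vehicle cells Cdk1 and Aurka were lower in TPM in every library of 24 h than of 3 h, beside 46.9% of all genes lower. On counts DESeq2 put both higher at 24 h, with log2 changes of 0.534 for Cdk1 (adjusted p = 0.0372) and 0.508 for Aurka (adjusted p = 0.0381). Their direction therefore turned with the scaling. Ccnb2, which encodes cyclin B2, and Mki67 were the 2 members that were higher in TPM in every library of 24 h than of 3 h in both arms, beside 3.59% of all genes in dDAVP cells and 1.95% in vehicle cells. Ccnb2 had 42.2, 44.4 and 42.9 TPM in the 3 h libraries, 41.8, 41.7 and 36.3 at 6 h, then 56.65, 56.2 and 49.8 by 12 h, and finally 50.4, 52.3 and 48.6 TPM after 24 h in dDAVP cells. In vehicle cells it had 49.3, 45.7 and 47.2 TPM in the 3 h libraries, 44.8, 46.5 and 43.4 at 6 h, then 52.1, 53.8 and 54.2 by 12 h, and finally 59.9, 51.55 and 53.6 TPM after 24 h. In both arms the libraries of 12 and 24 h all lay above those of 3 and 6 h. Its 24 h over 3 h change in dDAVP cells was 0.42 ± 0.13 (log2, SE) with TMM (adjusted p = 0.103) and 0.29 ± 0.06 with the 5 CPM filter (adjusted p = 0.00142). Mki67 averaged 8.72 ± 0.924, 7.98 ± 1.08, 11.0 ± 0.560 and 10.4 ± 0.154 TPM at 3, 6, 12 and 24 h in dDAVP cells, and 9.80 ± 0.307, 8.91 ± 0.171, 10.8 ± 0.914 and 11.0 ± 0.645 TPM in vehicle cells (SD, n = 3 each). Cenpf, a kinetochore protein, had its highest mean at 12 h in both arms, with 21.2, 21.3 and 21.8 TPM in dDAVP cells and 22.0, 22.4 and 18.1 TPM in vehicle cells, against 17.2, 15.2 and 13.6 TPM in dDAVP cells and 16.7, 17.8 and 17.9 TPM in vehicle cells at 6 h.

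A test for any change over the 4 times found different counts by arm and by fit. With TMM 1 member passed in dDAVP cells, Ccnd1, beside 2.28% of all genes. In vehicle cells 9 passed, beside 10.1% of all genes and 20.9% of the genes past the 5 CPM filter: Ccnb2, Mki67, Bub1b, Cdt1, Cenpf, Cdc20, Plk1, Tpx2 and Aurkb, all but the licensing factor Cdt1 being mitotic genes. With the covariate 8 passed in dDAVP cells, beside 9.0% of all genes: Ccnd1, Mki67, Ccnb2, Cenpf, Myc, Cenpe, E2f1 and Bub1. The same fit called 3 in vehicle cells, beside 2.59% of all genes: Ccnd1, Ccnb2 and Cenpf. With the 5 CPM filter 17 passed in dDAVP cells, beside 27.5% of the filtered genes, and 15 in vehicle cells, beside 25.8%. In vehicle cells the count with TMM rested on single libraries, and ran from 0 without 24 h replicate 1 or replicate 2 to 34 without 12 h replicate 2.

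Comparing the ends of the course in vehicle cells with TMM, 29 members passed higher at 24 h than at 3 h, beside 18.4% of all genes higher and 43.4% of the genes past the 5 CPM filter. Ccnd1 and Ccnd2 passed lower, beside 19.7% of all genes lower. Ccnb2 led (log2 0.67 ± 0.13 (SE), edgeR adjusted p = 0.00278), followed by Bub1b (0.57), Mki67 (0.62), Cdt1 (0.50), Cdc20 (0.48), Cenpf (0.52), Aurkb (0.49), Plk1 (0.45), Tpx2 (0.46) and Bub1 (0.48). The other 19 had adjusted p of up to 0.0469. The median log2 change was 0.39 for members and 0.31 for genes past the 5 CPM filter, while the median over all genes was -0.44. The receptor share fell to 0.233% at 24 h in vehicle cells, against 0.652% at 3 h. With it as covariate the count became 1, Ccnd1 lower, beside 0.158% of all genes lower. On TPM 1 member was called higher (Ccnb2) and 4 lower (Ccnd1, Myc, Rrm2 and Pcna), beside 0.985% of all genes higher and 40.5% lower. DESeq2 called 28 members higher and 1 lower, beside 5840 higher and 4478 lower of all 29743 genes. With the 5 CPM filter 10 passed higher, beside 13.6% of the filtered genes higher. Ccnd1 passed lower in that fit, beside 2289 of the 12269 filtered genes lower. Without vehicle 3 h replicate 1, the library with the highest receptor share, 1 member passed. The count was 14 without 3 h replicate 2, 5 without 24 h replicate 1 and 6 without 24 h replicate 2.

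**Figure D4:**
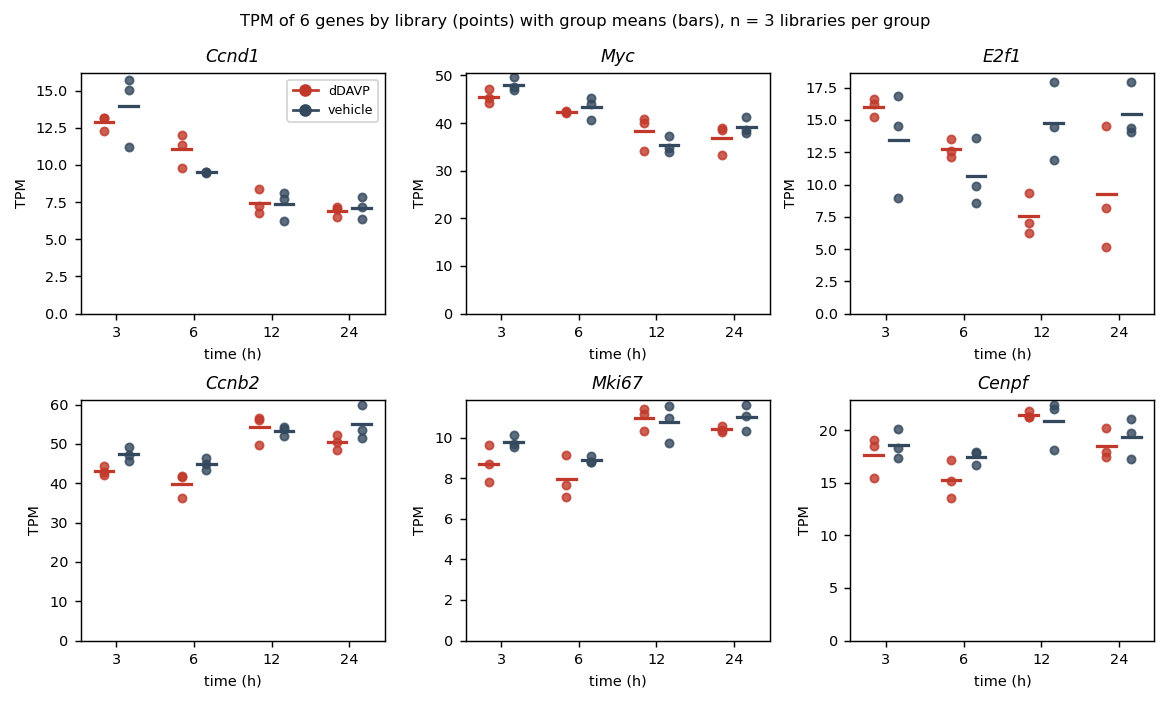
TPM of 6 members by time, with dDAVP libraries in red to the left of vehicle libraries in dark blue; points are libraries and bars are group means (n = 3). Ccnd1 and Myc decline in both arms, Ccnb2, Mki67 and Cenpf stand highest at 12 or 24 h, and E2f1 is lower in dDAVP than in vehicle libraries at 12 h.

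A ratio within a library does not depend on how that library is scaled, so the 18 mitotic members (cyclins A and B, Cdk1, mitotic kinases, checkpoint, spindle and kinetochore genes, Mki67 and Top2a) were set against the 8 licensing members as a difference of mean log2 TPM. The difference was -1.07 ± 0.053, -1.05 ± 0.045, -0.86 ± 0.033 and -1.05 ± 0.064 at 3, 6, 12 and 24 h in dDAVP cells. In vehicle cells it was -1.07 ± 0.023, -1.02 ± 0.033, -0.91 ± 0.037 and -1.01 ± 0.035 (SD, n = 3 each). All 6 libraries of 12 h lay between -0.94 and -0.82, above the other 18 libraries, which reached -0.97 at most, so mitotic transcripts stood higher relative to licensing transcripts at 12 h with either agent. At 12 h the dDAVP mean was the higher of the pair by 0.05, about the size of the spread, and 1 vehicle library lay inside the dDAVP range. This is a description of chosen members, with no test. The labels name no batch, and a difference between harvests of 12 h and the other times cannot be told apart from time.

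**Figure D5:**
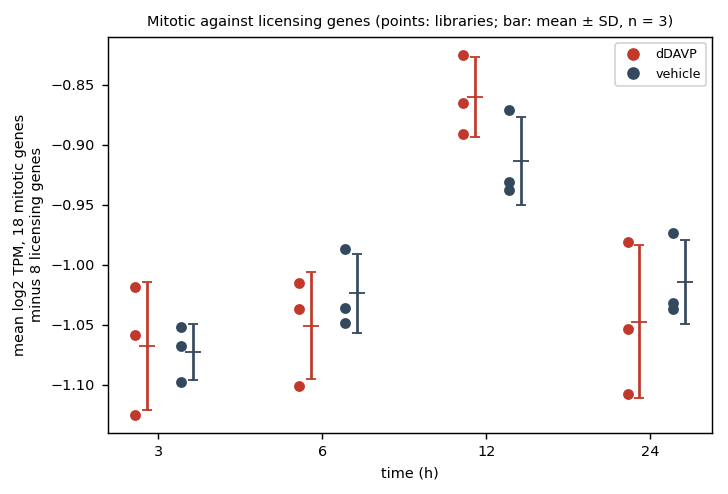
Mean log2 TPM of 18 mitotic genes minus that of 8 licensing genes in each library, by time, with dDAVP in red to the left of vehicle in dark blue; bars show mean ± SD over 3 libraries. The 12 h libraries of both arms stand above those of every other time.

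Promoters of both classes are described because these classes were set against each other above. Whether promoter sequence bears on the 12 h difference was not tested. RefSeq promoters (GRCm38.p6, 250 bases before to 50 after the start) were on hand for 31 members. As background, E2F factors bind sites like those in licensing genes, while mitotic genes often pair CCAAT boxes, bound by NF-Y, with a CHR element, bound by the MuvB complex with B-Myb. The E2F letters searched were TTTCCCGC and TTTGGCGC, the CHR letters TTTGAA and TTTAAA, and the box CCAAT, each on both strands. An E2F match stood in 6 of 7 licensing members (Mcm2 had none) and in 0 of 14 mitotic members, beside 1.56% of all 32851 promoters. Of the 10 other members with a promoter, 1 (Cdkn2a) held an E2F match. Pcna, Tyms, Rrm1, Rrm2, E2f1, Mybl2 and Ccne1 had none, so these letters did not mark the DNA synthesis members. A CHR match stood in 13 of 14 mitotic members (Bub1 had none) and in 2 of 7 licensing members, beside 27.6% of all promoters. CCAAT stood in 13 of 14 mitotic and 5 of 7 licensing members, beside 37.4% of all promoters. A match is a run of letters and not a shown binding site. The 150 bases before the start are printed for 3 mitotic members and 1 licensing member, 5′ to 3′ on the gene's strand, all 4 genes lying on the minus strand, with matches in capitals on either strand (ATTGG is CCAAT read on the other strand).
Ccnb2 (chr9:70421555-70421704): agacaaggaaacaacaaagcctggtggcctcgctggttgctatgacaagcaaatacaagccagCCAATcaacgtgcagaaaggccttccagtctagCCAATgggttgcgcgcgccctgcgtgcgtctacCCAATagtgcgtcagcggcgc
Mki67 (chr7:135716380-135716529): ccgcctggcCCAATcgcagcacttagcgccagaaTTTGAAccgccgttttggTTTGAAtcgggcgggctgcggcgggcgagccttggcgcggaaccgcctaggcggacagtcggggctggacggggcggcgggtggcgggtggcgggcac
Cdk1 (chr10:69352913-69353062): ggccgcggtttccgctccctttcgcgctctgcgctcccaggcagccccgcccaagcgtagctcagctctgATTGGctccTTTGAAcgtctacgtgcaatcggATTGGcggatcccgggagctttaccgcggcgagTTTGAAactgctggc
Mcm6 (chr1:128359706-128359855): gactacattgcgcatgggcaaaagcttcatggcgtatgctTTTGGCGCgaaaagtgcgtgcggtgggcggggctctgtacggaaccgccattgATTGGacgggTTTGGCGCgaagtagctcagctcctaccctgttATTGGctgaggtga

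In these stretches Ccnb2 holds 3 CCAAT boxes, its CHR matches lying outside the printed bases, and Mki67 holds 2 CHR matches beside 1 CCAAT box. Cdk1 holds 2 CHR matches and 2 CCAAT boxes, and Mcm6 holds 2 E2F matches of the same letters and 2 CCAAT boxes. Ccnb2 and Mki67 passed the test for change over time in vehicle cells with TMM, whereas Cdk1 did not pass it in either arm with TMM, the 5 CPM filter or the covariate, and averaged 253 ± 15.65, 239.6 ± 18.1, 257 ± 18.9 and 241 ± 7.96 TPM at 3, 6, 12 and 24 h in dDAVP cells. A link between the matches and these courses was not tested.

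Other genes of the cycle, 142 in 6 lists of which 141 were tested, were tested in the same fits. They hold the origin, fork, kinetochore, condensation and cytokinesis, Rb and E2F, and CDK inhibitor and p53 lists. At 6 h 85 of 141 passed higher with TMM and 0 lower, beside 49.7% higher among the genes past the 5 CPM filter. With the covariate 0 passed (7 at an unadjusted p under 0.05), and 32 passed lower by limma on TPM, beside 21.7% of all genes. At 3, 12 and 24 h 0 of 141 passed with TMM (19, 2 and 0 at an unadjusted p under 0.05), and limma on TPM also called 0. Over the course with TMM 3 passed in dDAVP cells, a share near the 2.28% of all genes, all in the list of other CDK inhibitors and p53 targets: Aen, a nuclease (adjusted p = 0.000989), Btg2, an antiproliferative factor (0.00652), and Gadd45a, a stress-induced inhibitor of division (0.0197). By list, the 24 h over 3 h change in vehicle cells passed higher for 8 of 20 origin, 22 of 30 fork, 12 of 18 kinetochore, 18 of 26 condensation, 12 of 28 Rb and E2F and 11 of 19 inhibitor genes, with 0 lower. With TMM 18.4% of all genes and 43.4% of the genes past the 5 CPM filter passed higher in this comparison, and 19.7% of all genes passed lower. On TPM 40.5% of all genes passed lower instead. Gadd45a had a log2 change of 0.65 at 24 h over 3 h in dDAVP cells, with a mean of 16.9 TPM at 24 h and 13.2 TPM at 3 h. In vehicle cells 32 of 141 passed over the course, beside 10.1% of all genes and 20.9% of the genes past the 5 CPM filter, a share near the latter. Among them were Gadd45a (0.00509), Sesn2 (0.00455), Pold1, the catalytic subunit of DNA polymerase delta (0.00526), and Cenpm, a kinetochore gene (0.0131). With the covariate 24 passed in dDAVP cells, beside 9.0% of all genes, 12 of them in the list of CDK inhibitors and p53 targets, and 8 in vehicle cells, beside 2.59% of all genes. Sesn2 and Btg2 were the 2 of 141 whose mean dDAVP effect passed with the covariate, a share near the 1.22% of all genes, with log2 values of 0.30 (adjusted p = 0.00752) and 0.22 (adjusted p = 0.0153). Sesn2 averaged 8.14, 6.09, 5.73 and 7.62 TPM at 3, 6, 12 and 24 h in dDAVP cells, and 7.23, 6.08, 4.37 and 6.87 TPM in vehicle cells.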

How the data were processed

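The authors' deposited tables hold estimated counts and TPM per gene for each of the 24 libraries. Salmon 0.14.10 and GRCm38.p6 are named per the submitters' processing notes; the labels' protocols give total RNA, SMART-Seq HT cDNA and Nextera libraries, and strand was not used. The estimated counts summed to 17.25 to 27.64 M per library. Groups came from the labelled agent and time. The deposited estimated counts were rounded to whole numbers, filtered with filterByExpr, scaled by TMM and fitted over all 24 libraries with edgeR 4.0.16 (glmQLFit, glmQLFTest, Benjamini-Hochberg adjustment over all genes tested, threshold 0.05). The deposited TPM values were tested with limma 3.58.1 on log2(TPM + 1), which understates changes of low genes. Alternatives were RLE scaling, no filter, a 5 CPM filter, log2(TPM + 0.1), DESeq2 1.42.0, a replicate block, a receptor share covariate, and leaving out each library. Total-count library sizes, the 5 CPM filter together with the covariate, and leaving out both libraries of highest receptor share were chosen after seeing the data. R 4.3.3, Python 3.11.15 and matplotlib 3.10.9 were used, and the fits were tested on simulated data. The members and lists were chosen with earlier results of these data known. In each comparison the members called were named, with values for the 10 of smallest p, or for up to 3 where none was called; Mki67, Ccnd1, Cdkn1a and Myc were named in any case, and other genes of the cycle were named from up to 4 of smallest p per list. Sesn2 in the mean effect, Mcm7 and E2f1 by library, and the 4 promoters were chosen after their values were seen. Replicates of a group differed by 2.507 to 35.78 in chi-square per gene, so none was taken as a repeat of another.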

Additional observations from a re-analysis of the deposited data

How the results depend on the processing

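At 6 h the 24 higher calls became 20 with DESeq2, 7 with RLE scaling, 5 without a filter, and 1 with the 5 CPM filter or total-count library sizes. With the covariate 0 were called, with or without the 5 CPM filter. Limma with pseudocounts of 1 and 0.1 gave 11 and 15 lower calls. Without both libraries of highest receptor share 36 were called (35 higher). Over all genes the 6 h calls also rose, from 11320 of 29743 in the main fit to 14266 of 29786 without both of those libraries. Among all 29743 genes the higher calls at 6 h were 6203 in the main fit, 5114 with DESeq2, 3414 with RLE scaling, 481 with total counts and 83 with the covariate. They were 1489 of 52264 without a filter and 612 of 12269 with the 5 CPM filter. Limma with pseudocounts of 1 and 0.1 called 6446 and 10488 of 29743 genes lower. The mean effect had 17 higher calls in the main fit and 17 with DESeq2. It had 5 with RLE scaling, 4 without a filter, 3 with the 5 CPM filter and 1 with total counts. With the covariate 0 were called, with or without the 5 CPM filter, and limma gave 12 lower calls with either pseudocount. Leaving out both libraries of highest receptor share gave 2 higher calls. Over all 29743 genes the higher calls were 4970 in the main fit, 4916 with DESeq2, 3182 with RLE scaling, 751 with total counts and 282 with the covariate. They were 2171 of 52264 without a filter, 1403 of 12269 with the 5 CPM filter and 577 of 29786 without both libraries. Dependence on time gained 1 call, E2f1, without a filter or without both of those libraries. For 24 h over 3 h in dDAVP cells the 1 call became 0 with RLE, no filter or DESeq2, 2 with the covariate or limma, 4 with total counts or with the 5 CPM filter and covariate, 9 with the 5 CPM filter (6 higher) and 3 without both libraries (2 higher). Over all 29743 genes the calls were 386 in the main fit, 1190 with the covariate, 452 by limma with a pseudocount of 1 and 1413 with total counts. They were 1956 of 12269 with the 5 CPM filter, 1904 of 12269 with that filter and the covariate, and 1684 of 29786 without both libraries. In vehicle cells the 31 calls (29 higher) became 29 with DESeq2 (28 higher), 25 with RLE scaling and 25 without a filter (24 higher in each). They became 11 with the 5 CPM filter, 13 with total counts, 1 with the covariate, 2 with the 5 CPM filter and covariate, 9 without both libraries, and 5 and 4 by limma, mostly lower. Over all 29743 genes the calls were 11312 in the main fit, 10318 with DESeq2, 9690 with RLE scaling, 10037 with total counts and 206 with the covariate. They were 8526 of 52264 without a filter and 3959 of 12269 with the 5 CPM filter. The course in dDAVP cells gave 0 (RLE), 1 (DESeq2), 2 (no filter), 17 (5 CPM), 8 (covariate), 8 (limma with either pseudocount), 13 (total counts), 18 (5 CPM with covariate) and 5 calls (without both libraries). In vehicle cells it gave 0 (RLE), 4 (no filter), 15 (5 CPM), 3 (covariate), 12 (total counts), 9 (5 CPM with covariate), 5 (limma with either pseudocount, and DESeq2) and 14 (without both libraries). Over all 29743 genes the dDAVP course called 677 in the main fit, 200 with RLE, 554 with DESeq2 and 2668 with total counts. The vehicle course called 2995, 738, 3211 and 2262 in the same order. Leaving out 1 library at a time gave 0 to 6 calls at 6 h, 1 to 36 for the mean effect, 0 to 1 for dependence on time, 0 for 24 h over 3 h in dDAVP cells, 1 to 33 in vehicle cells, 1 to 2 for the course in dDAVP cells and 0 to 34 in vehicle cells. The mitotic minus licensing difference of 24 h over 3 h in dDAVP cells ran from -0.014 to 0.05, turning sign to -0.009 without dDAVP 3 h replicate 1 and to -0.014 without dDAVP 24 h replicate 2. Replicate numbers did not pair the libraries: 5 of 12 same-numbered pairs correlated above 0.1 (-0.266 to 0.578) and 9 of 24 libraries matched their own number best. With the replicate block 34 members were called at 6 h, 24 for the mean effect, 33 for 24 h over 3 h in vehicle cells, 2 for the course in dDAVP cells and 18 in vehicle cells. In the same order that fit called 13144, 11421, 12409, 921 and 4875 of all 29743 genes. At 6 h 37 of 40 members were below 0 by limma and 26 with the covariate, against 1 with TMM. Among the genes followed singly in each comparison, log2 values that changed sign by limma, with pseudocounts of 1 and then 0.1, were Mybl2 (-0.115, -0.119), Cdkn1b (-0.0342, -0.0378) at 3 h, Ccne1 (-0.0548, -0.0606), Myc (-0.0318, -0.0324), Cdkn1a (-0.00427, -0.0043), Cdkn1b (-0.0075, -0.00839), Plk1 (-0.144, -0.15), Birc5 (-0.0688, -0.0694), Mcm3 (-0.109, -0.11), Aurka (-0.133, -0.136), Mcm5 (-0.133, -0.134), Tpx2 (-0.127, -0.132) at 6 h, Myc (-0.0206, -0.021), Plk1 (-0.0586, -0.0611), Bub1 (-0.0904, -0.099), Mcm3 (-0.0331, -0.0335), Ccnb1 (-0.0578, -0.0588), Pcna (-0.0389, -0.0392), Aurka (-0.0669, -0.0684) for the mean effect, Plk1 (-0.00295, -0.00305), Tpx2 (-0.0122, -0.0126), Bub1 (-0.0339, -0.0357) for 24 h over 3 h in vehicle cells. With the covariate they were -0.00207 for Birc5 and -0.0202 for Tpx2 at 6 h and 0.051 for Ccnd2 at 24 h over 3 h in vehicle cells, with the 5 CPM filter and covariate -0.0296 for Birc5, -0.0251 for Aurka and -0.048 for Tpx2 at 6 h and -0.00209 for Aurka for the mean effect, and with total counts -0.0194 for Tyms for the mean effect. The cause of these changes was not tested. Low counts limit Ccnd2 most.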
